A study of Bos taurus with 8 samples.

Results

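The response of bovine peripheral blood mononuclear cells to 2 h of lipopolysaccharide (LPS) was described from 2 scRNA-seq libraries, no LPS and 2 h LPS. All 18902 barcodes with at least 200 genes detected were taken, 8485 from the no LPS library and 10417 from the 2 h LPS library, of 30732 such barcodes in the 4 scRNA-seq libraries of the series. Blood of 4 Holstein females aged 2 years, lactating per the study's methods, was pooled and divided before treatment, and LPS was given to whole blood at 2 µg/ml, after which mononuclear cells were isolated. Each treatment had 1 library, so no difference below has a replicate check and no p-value was computed. Because the animals were pooled, differences between animals could not be seen. No incubation time is given for the part without LPS, so LPS and 2 h of incubation cannot be told apart.

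LPS is the main outer-membrane lipid of Gram-negative bacteria. It is bound by CD14 and by the complex of TLR4 and MD-2 (gene LY96), and the adaptors MYD88 and TICAM1 then lead to activation of NF-κB, of MAP kinases and of interferon-regulatory factors. In blood the monocyte is the main cell that carries CD14 and TLR4, and the genes it induces first encode cytokines, chemokines, prostaglandin enzymes and the inhibitors that later end the response.

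Values are UMIs summed over the barcodes of a library or cell class and scaled to CPM, the UMIs of a gene per 1000000 UMIs of that library or class. The log2 ratio is log2((CPM at 2 h + 1)/(CPM without LPS + 1)), which understates the change of low genes, and "higher" or "lower" in a count means at least 2-fold. Intervals are 95% and cover counting error only. Both libraries had a median of 4182 UMIs per barcode, with medians of 1391 and 1385 genes and of 2.09% and 2.16% mitochondrial UMIs, and 22 barcode sequences occurred in both.

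Cells were sorted into classes by raw UMIs of a few marker genes. T cells held at least 2 UMIs of CD3D, CD3E and CD3G, and were divided by CD4, by CD8A and CD8B, and by a WC1 panel. This panel was made of the WC1 genes that mark a cattle γδ T subset, with TRDC and CD163L1. B cells held at least 3 UMIs of CD79A, CD79B and MS4A1, monocytes at least 3 of CD14, CSF1R and CD68, and NK cells had a UMI of NCR1 or KLRF1 and none of CD3. Each class allowed at most 1 UMI of the T, B and monocyte panels of other classes. T cells also held no UMI of NCR1 or KLRF1. CD4 T cells held none of CD8A, CD8B or the WC1 panel, and CD8 T cells none of CD4 or the WC1 panel. No other limit was set, so gated B cells and monocytes could hold UMIs of NCR1, KLRF1, CSF3R or CXCR2. Markers that the gates did not use followed the names, as 11 further monocyte genes summed to 3784 and 2832 CPM in monocytes (no LPS, 2 h LPS) against 293 and 265 CPM in B cells and 142 and 126 CPM in CD4 T cells. None of these 11 genes was at 0 in monocytes. Further NK genes, 11 in number, summed to 4285 and 4450 CPM in NK cells and to 112 and 104 CPM in CD4 T cells. They summed to 5130 and 3503 CPM in monocytes, where FCER1G and TYROBP, adaptor genes of both cell types, made up nearly all of the sum. GNLY, the cytotoxic granule protein granulysin, was at 933 and 1296 CPM in NK cells and at 22.2 and 10.5 CPM in monocytes.

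Monocytes were 10.5% of barcodes without LPS (894 barcodes, 9.89 to 11.2%) and 3.48% at 2 h (363 barcodes, 3.14 to 3.85%), a ratio of 0.331 with an interval of 0.292 to 0.374. The gate genes themselves were lower at 2 h within the gated monocytes, with log2 ratios of −0.73 for CD14, −1.21 for CSF1R and −0.88 for CD68, and the part of this in the share was not tested. With gates on barcodes thinned to 1000 UMIs the monocyte ratio was 0.177. WC1 γδ T cells went the same way, from 2.03% (172 barcodes) to 1.1% (115 barcodes), a ratio of 0.545 (0.426 to 0.694), and thinned gates left 7 and 2 barcodes of this class, too few for a ratio. The shares of CD4 T cells were 11.9% in both libraries, CD8 T cells 6.52% and 6.88%, B cells 21.4% and 23.6%, and NK cells 0.884% (75 barcodes) and 1.11% (116 barcodes). Barcodes gated by CSF3R and CXCR2, receptors of the granulocyte lineage, were 25 and 77, with median depths of 972 and 1399 UMIs. This gate held fewer than 50 barcodes without LPS and was shallow in both libraries, so its barcodes were not named as a cell type. The remaining 27.9% and 27.8% of barcodes met no gate, and they included 456 of 1350 barcodes without LPS and 281 of 644 at 2 h that held 3 or more monocyte UMIs together with 2 or more T or B cell UMIs. Doublets were not called, and a deep monocyte with free lymphocyte RNA and a monocyte joined to a lymphocyte were not told apart. A fixed UMI gate passes deep barcodes more readily, and monocytes were deeper at 2 h (a median of 13705 against 10716.5 UMIs).

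**Figure D1:**
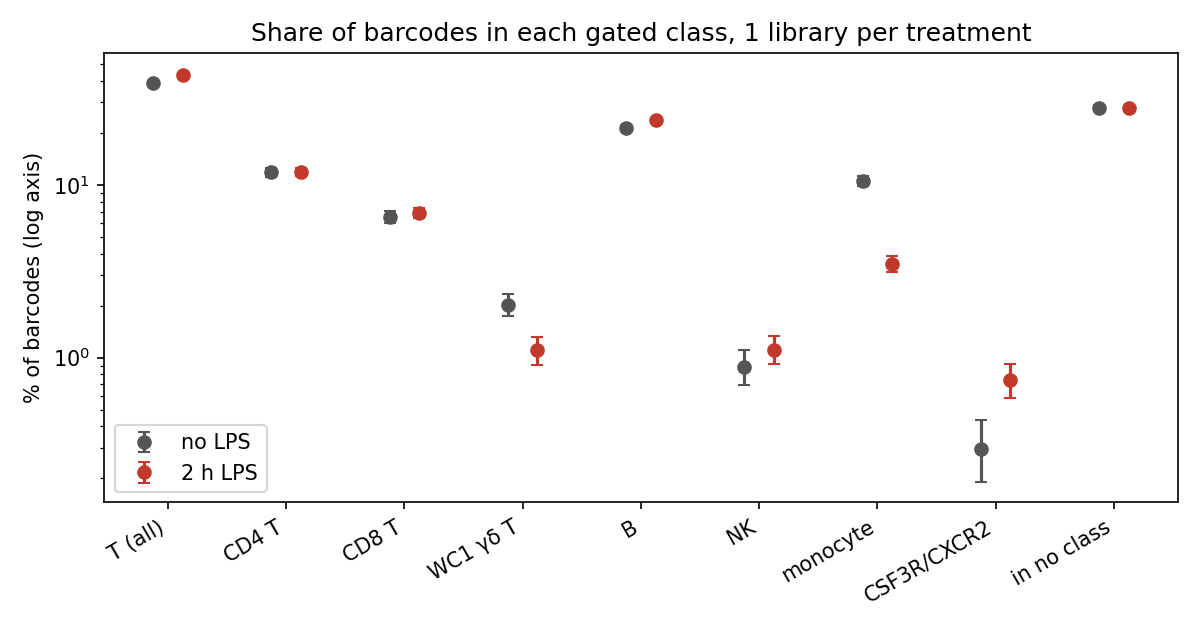
Share of barcodes (log axis, %) in each gated class without LPS (grey) and at 2 h LPS (red), 1 library each, with exact 95% binomial intervals. The monocyte points lie at 10.5% and 3.48% and the WC1 γδ T points at 2.03% and 1.1%, while the CD4 T points lie at 11.9%.

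Over all cells, 100 of 9799 genes with at least 200 UMIs were 2-fold higher at 2 h (1.02% of the genes) and 319 were 2-fold lower (3.26%). A sum over all cells does not separate fewer cells of a type from less RNA of a gene per cell. The highest ratio was that of CCL20, a chemokine for CCR6-bearing lymphocytes and dendritic cells, from 49.9 CPM (48.1 to 51.8) to 728 CPM (721 to 735), a log2 ratio of 3.84. CD69, an early activation receptor of leukocytes, went from 18.3 to 163 CPM (3.08). TNFAIP6, which encodes a hyaluronan-binding protein, went from 5.62 to 48.9 CPM (2.91).

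PTGS2, the inducible cyclooxygenase of prostaglandin synthesis, went from 55.7 to 373 CPM (2.72), and CSF3, the granulocyte growth factor, from 100.3 to 665 CPM (2.72). NOS2, the inducible nitric oxide synthase, went from 7.15 to 33.7 CPM (2.09). The antiviral gene ISG15 reached 1091 CPM from 172 (2.66), with IFIT2 at 2.33 and IFIT1 at 2.00. SLAMF1 (2.58), a co-receptor of leukocytes, IL22 (2.55), RND1 (2.08), the B cell complement receptor CR2 (2.04), the vasoconstrictor peptide gene EDN1 (2.02) and the ETS factor EHF (1.99) completed the 15 highest ratios. Of the 15, 11 were higher at 2 h than in any of the other 3 libraries, the exceptions being ISG15, IFIT2 and IFIT1, which were highest at 4 h, and IL22, highest at 8 h. ISG15 stood at 2769 CPM at 4 h. These 15 genes were chosen for a high level at 2 h against no LPS, which favours a peak at 2 h in advance.

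The lowest ratios were those of genes of monocytes and macrophages. MMP9, a matrix metalloproteinase, went from 30.9 to 1.1 CPM (−3.93), HMOX1, haem oxygenase, from 77.2 to 7.56 CPM (−3.19), NRN1 from 63.0 to 6.10 CPM (−3.17), and CD163, the haemoglobin scavenger receptor, from 14 to 1.29 CPM (−2.72). Both receptors of complement C5a were among them, C5AR2 at −2.84 and C5AR1 at −2.66, as were the growth factor gene AREG (−2.69), the inflammasome adaptor gene PYCARD (−2.67), MMP19 (−2.66), the β-defensin DEFB13 (−2.64), the lectins CLEC12A (−2.57) and CLEC5A (−2.54), the hyaluronan synthase HAS2 (−2.49), NRG1 (−2.42) and the clotting factor subunit F13A1 (−2.39). With barcodes weighted equally AREG lay at −0.82 and RND1 at 0.85, and with a pseudocount of 5 CPM NRG1 lay at −0.97, each short of 2-fold. All 15 had their highest level of the 4 libraries without LPS, but they were chosen by their ratio to that library, which favours this in advance. Monocytes were 10.5% of barcodes without LPS and 3.48%, 2.36% and 3.09% at 2, 4 and 8 h, and the part of this in the levels was not tested.

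Of the 319 lower genes, 305 had their highest level without LPS in the monocyte class among the 6 gated classes, and 156 of these 305 were also 2-fold lower within monocytes by CPM. Of all genes in the monocyte class 15.2% were lower by CPM, with a median log2 ratio of −0.46, and relative to that median 82 of the 305 were lower. On the same scale 298 of all 7100 genes counted in the class were lower. When each class was given its no LPS share of UMIs, 158 of the 319 stayed 2-fold lower and none changed sign. Of the 100 higher genes, 54 were highest in monocytes at 2 h, 25 in B cells, 11 in WC1 γδ T cells and 10 in the other 3 classes, and 88 of the 100 stayed 2-fold higher at the no LPS composition.

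**Figure D2:**
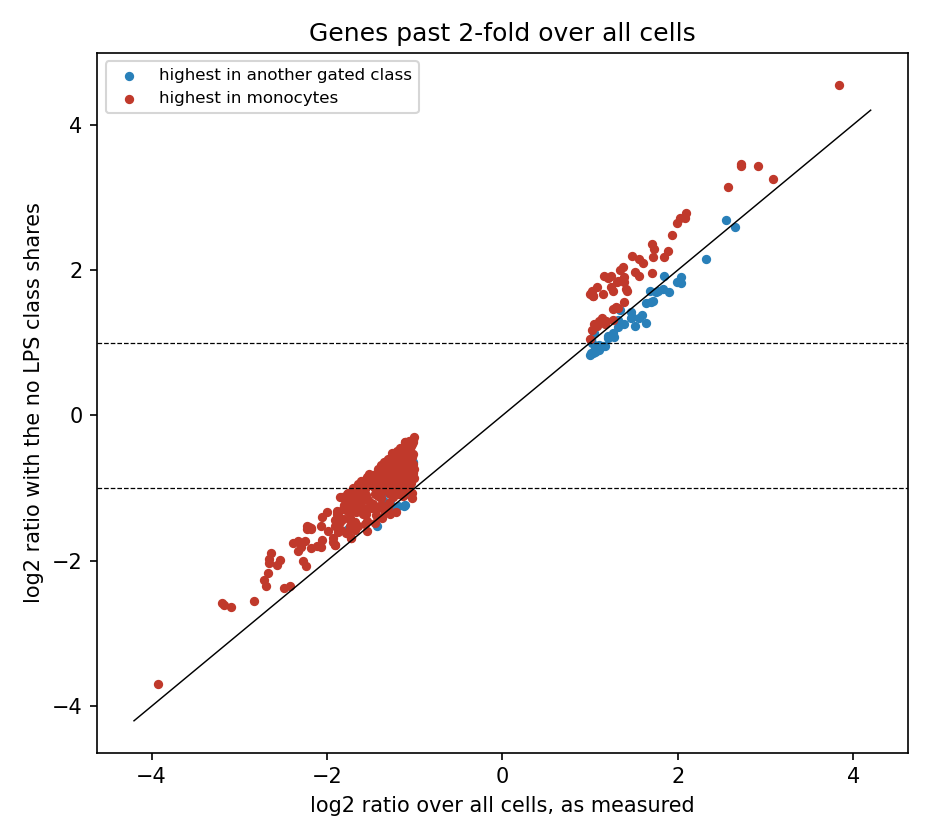
The 419 genes past 2-fold over all cells, with the measured log2 ratio on the x axis and the ratio recomputed with the no LPS class shares on the y axis, red for genes highest in monocytes. Barcodes in no class were weighted as a class of their own, so a change in cell types among them was not corrected. Most red points lie above the diagonal, and 158 of the 319 lower genes stay past the lower dashed line of 2-fold.

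Within monocytes, 262 of 6976 genes were 2-fold higher (3.76%) and 1057 were 2-fold lower (15.2%), after genes under 5% of the level of the highest class in both libraries were set aside as possible free RNA. This balance turned with the scaling. The median log2 ratio of all genes in the class was −0.46, and with edgeR TMM scaling 472 genes were higher and 372 lower. A housekeeping gene such as ACTB, at 14367 and 9257 CPM, lay at −0.63 by CPM and at −0.18 relative to the class median. Chemokine genes alone took 180835 CPM of the monocyte RNA without LPS and 250749 CPM at 2 h, and the 25 listed cytokine genes went from 12123 to 36731 CPM. Monocyte ratios below are by CPM, and adding 0.46 gives the ratio relative to the class median.

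Among genes not set aside, the top monocyte gene was SLAMF1, at 3.60 CPM without LPS (36 UMIs in 23 of 894 barcodes) and 316 CPM at 2 h (1628 UMIs in 205 of 363 barcodes), a log2 ratio of 6.11. CD69, at 5.18 in monocytes, was set aside because its level was higher in the CSF3R and CXCR2 gated barcodes. SLAMF1 was followed by CCL20, from 169 to 4409 CPM (4.69), and by IL23A, a subunit of the Th17-supporting cytokine IL-23, from 1.30 to 37.9 CPM (4.08), the last carried by 4 and 24 barcodes. CSF3 went from 314 to 4292 CPM (3.77), PTGS2 from 181 to 2278 CPM (3.65), RND1 from 5.41 to 76.5 CPM (3.60), TNFAIP6 from 17.5 to 218 CPM (3.56) and the potassium channel gene KCNJ2 from 1.00 to 24.3 CPM (3.66). PTGS2 was detected in 43.4% of monocytes without LPS and in 90.1% at 2 h, and CCL20 in 4.92% and 38.0%, so that most monocyte barcodes had PTGS2 and a minority had CCL20.

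Among listed cytokines, 11 of 21 counted in monocytes were higher and 1 lower, with a median of 1.18 (of all genes with 20 or more UMIs in the class, 3.74% were higher and 15% lower). IL1B, the most abundant, went from 8325 to 20137 CPM (1.27), IL6 from 1109 to 4389 CPM (1.98), TNF from 68.2 to 191 CPM (1.47) and the anti-inflammatory IL10 from 178 to 661 CPM (1.89). IL1RN, the interleukin-1 receptor antagonist, went from 1310 to 5305 CPM (2.02), and IL27 from 53.7 to 227 CPM (2.06). The lower member, CSF2 (−1.03), had 834 of its 855 UMIs without LPS in 1 monocyte barcode, and lay at −0.57 relative to the class median.

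Chemokines split. The neutrophil-attracting GRO1 (1.5), CXCL8 (1.38) and CXCL3 (1.25), together with CCL3 (1.74), CCL4 (1.85), CCL20 and CCL22 (2.17), were higher in monocytes, 7 of 13 counted. By CPM, 3.74% of all genes with 20 or more UMIs in the class were higher and 15% lower. Relative to the class median 9 of the 13 were higher and 1 lower, beside 533 and 298 of all 7100 genes counted. CCL2, which attracts monocytes, was lower, from 33163 to 11541 CPM (−1.52), and remained below the class median by 1.06. CXCL5, the most abundant transcript of the list at 74409 CPM without LPS and 64602 CPM at 2 h, lay at −0.20, and relative to the class median at 0.25. Its log2 ratio over all cells was −1.06.

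Of 18 listed effector enzymes and proteins, 16 were counted in monocytes and 8 were higher, among them NOS2 (3.45), the pentraxin PTX3 from 3195 to 14179 CPM (2.15), tissue factor F3 (2.01) and ACOD1, the itaconate enzyme (1.57). None was lower. The genes of the NF-κB system, whose products include the inhibitors that the pathway itself induces, gave 10 of 16 higher and none lower in monocytes, led by BIRC3 (2.52), TNFAIP3 (2.18), TRAF1 (1.66) and REL (1.63). By CPM, 3.74% of all genes with 20 or more UMIs in the class were higher and 15% lower. Relative to the class median 13 of the 16 NF-κB genes and 10 of the 16 effector genes were higher and none lower. On that scale 533 of all 7100 genes counted were higher and 298 lower.

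Receptor and adaptor genes gave few calls. TLR4 was at 89.1 CPM in monocytes in both libraries (0.00), LY96 at 60.6 and 39.0 CPM (−0.62) and MYD88 at 79.6 and 49.5 CPM (−0.67), and 1 of 14 counted genes, IRAK2 (1.15), was past 2-fold by CPM. Relative to the class median, TLR4 lay at 0.46, LY96 at −0.16 and MYD88 at −0.22, and 3 of the 14 were past 2-fold, IRAK2 (1.61), IRAK3 (1.44) and TIRAP (1.15). On that scale 533 of all 7100 genes counted in the class were higher and 298 lower. Over all cells TLR4 lay at −0.54. CD14 was used in the gate and is not read as a result.

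Immediate early genes were mixed at 2 h. ATF3 (1.91), NR4A3 (1.44), MAFF (1.43), BTG2 (1.28) and IER3 (1.2) were higher in monocytes, while FOS, at 60.7 and 12.4 CPM (−2.20), MYC (−1.14) and EGR1 (−1.08) were lower. Relative to the class median 7 of the 19 were higher and 1 lower, FOS. Of all 7100 genes counted in the class, 533 were higher and 298 lower on this scale. Feedback inhibitors gave 6 of 17 higher by CPM, with the RNase gene ZC3H12A (2.37), GADD45B (1.80) and CISH (1.76). The 2 lower were the mRNA-decay factors ZFP36L2 (−1.90) and ZFP36L1 (−1.45). By CPM, 3.74% of all genes with 20 or more UMIs in the class were higher and 15% lower. Relative to the class median 7 of the 17 were higher and 1 lower, ZFP36L2 (−1.44), with ZFP36L1 at −0.99.

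A list of monocyte genes was lower in part. Over all cells 17 of 26 counted genes of this list were 2-fold lower (2.74% of all genes with 20 or more UMIs were), with a median of −1.39. Within monocytes it was 7 of 24, which were MMP9 (89.1 to 2.52 CPM, −4.68), NRN1 (−2.59), CD163 (−2.29), FGL2 (−2.25), C5AR1 (−1.96), DEFB13 (−1.68) and LAP (−1.19), where 15% of all genes with 20 or more UMIs were lower. Relative to the class median 6 of the 24 were lower and 3 higher, among the latter SPP1 (1.26) and CXCR4 (1.16). Of all 7100 genes counted in the class, 298 were lower and 533 higher on this scale. S100A8, S100A9 and LYZ, at −0.24, −0.30 and −0.37 within monocytes, lay at −1.23, −1.21 and −1.38 over all cells. A sum over all cells weighs a class by its share of UMIs, which for monocytes was 17.2% without LPS and 8.08% at 2 h. The ratio of 0.331 above is that of barcode shares. The antimicrobial peptide gene TAP was higher in monocytes (318 to 832 CPM, 1.39).

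Some of the lowest monocyte ratios rested on a single barcode. In monocytes without LPS, 769 of 772 XCL1 UMIs and 505 of 511 CCL1 UMIs were each in 1 barcode, and without the top barcode of each library XCL1 changed from −5.18 to 0.28 and CCL1 from −4.59 to −0.68. NRG1, at 178 UMIs in 90 barcodes and 3 UMIs in 3, and HAS2, at 187 UMIs in 52 barcodes and 5 UMIs in 3, did not depend on 1 barcode.

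B cells, which present antigen and produce antibody, differed between the libraries as well. After setting aside possible free RNA, 137 of 8935 genes were 2-fold higher (1.53%) and 37 lower (0.414%). ISG15 went from 146 CPM (139 to 153) to 1956 CPM (1934 to 1977), a log2 ratio of 3.74, with UMIs in 451 of 1813 barcodes and in 1442 of 2462. B cells held 46.1% of the ISG15 UMIs of the 2 h library, against 15.8% without LPS, while their share of all UMIs was 25.7% and 18.6%. In monocytes ISG15 lay at 1.58.

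Interferon-stimulated genes, which carry out antiviral defence, were 2-fold higher in B cells for 8 of 37 counted (1.98% of all genes with 20 or more UMIs in the class were higher and 0.586% lower, before any was set aside), with RSAD2 (3.18), IFIT2 (2.87), IFIT1 (2.72), IFIH1 (2.14), MX1 (1.5), IFIT3 (1.33) and DHX58 (1.11) beside ISG15. The list's median in B cells was 0.30, and PARP9 and XAF1 lay at 0.02 and 0.01 over all cells. In monocytes 6 of 34 counted were higher by CPM, IFIT2 (1.99) and IFIT1 (1.72) among them, and 1 was lower, RSAD2 (−1.65). Of all genes with 20 or more UMIs in monocytes, 3.74% were higher and 15% lower. Relative to the monocyte median 13 of the 34 were higher and 1 lower, beside 533 and 298 of all 7100 genes counted.

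Outside the interferon genes, B cells were led by the survival gene BCL2A1, from 246 to 1991 CPM (3.01), by MARCKS, a substrate of protein kinase C, from 29.1 to 251 CPM (3.07), and by the histone demethylase gene KDM6B, from 24.0 to 167 CPM (2.75). BCL2A1 UMIs were in 1779 of 2462 B cells at 2 h. ISG15, RSAD2, MARCKS and KDM6B passed the screen for free RNA through the 2 h library alone, and 121 of the 137 higher genes were left with 5% of the highest class required in both libraries. Surface genes of B cell activation followed, with CD83 from 155 to 945 CPM (2.61), CD40 from 69.8 to 380 CPM (2.43) and IL2RA from 8.42 to 43.9 CPM (2.25). IGFBP3, a growth factor binding protein gene, had 1 UMI without LPS and 112 UMIs in 76 barcodes at 2 h. CR2 was at 16.1 and 66.2 CPM, and 71.2% of its 2 h UMIs were in B cells. Of the NF-κB genes 10 of 16 were higher and 8 of these were not set aside, among them TNFAIP3 (2.56), TRAF1 (2.43) and NFKBIZ (2.22).

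The lowest ratios in B cells were nearer to 0, led by GRB7 (−1.33), EPHX4 (−1.30), SV2A (−1.22), the clock-controlled factor DBP (−1.21) and ERBB2 (−1.21). Genes of antigen presentation by MHC class II gave none of 8 past 2-fold, and of 16 counted genes of cholesterol synthesis and glycolysis 2 were higher and not set aside, HMGCS1 (1.12) and SQLE (1.09).

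In T cells fewer genes passed. In all T cells 42 of 9436 were higher (0.445%) and 7 lower (0.0742%), and in CD4 T cells 27 of 7834 were higher (0.345%) and 25 lower (0.319%), or 29 and 17 with TMM scaling. The screen for free RNA let a gene pass on its level in either library, so ISG15, BHLHE40, IFIT3, MAP3K8 and KDM6B passed in CD4 T cells through the 2 h library alone. The same held for ISG15 in all T, NK and WC1 γδ T cells, for IL2RA in CD8 T cells, and for NUPR1, CCL3 and JCHAIN in WC1 γδ T cells. CCL20 in CD4 T cells passed through the no LPS library alone, at 11.3% of the level of the highest class. At 2 h it stood at 1.46% of that level, under 5%, with 106 of its 425 UMIs in 1 barcode. With 5% of the highest class required in both libraries, 16 genes were higher and 17 lower in CD4 T cells. By CPM, CD4 T cells were led by ISG15, from 110 to 478 CPM (2.10), by the transcription factor BHLHE40 (1.80), IFIT3 (1.72), TNFRSF18, the receptor GITR, from 61.0 to 203 CPM (1.72), CCL20 (1.70), the kinase MAP3K8 (1.63), KDM6B (1.56) and TRAF1 (1.54). TNFRSF18 UMIs were in 102 of 1006 CD4 T barcodes without LPS and in 276 of 1235 at 2 h. The co-stimulatory receptor gene TNFRSF4 went from 85.8 to 202 CPM (1.22).

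The lowest ratios of CD4 T cells came from few barcodes. TAP had 385 UMIs in 16 barcodes without LPS, 246 of them in 1, BCL2L15 had 161 in 14, and CCL22 had 117 in 7. MZB1 had 164 UMIs in 23 barcodes, 70 of them in 1, and PSPH 94 in 41. TAP, BCL2L15 and MZB1 passed the screen for free RNA through the no LPS library alone, at 22.3%, 12.6% and 5.59% of the highest class. At 2 h they stood at 0.109%, 0.322% and 0.57%. Among other low ratios, RUNX1T1 in all T cells, DAPL1 and CTSW in WC1 γδ T cells and XCL1 in monocytes also passed through the no LPS library alone. Of the lists, 12 genes of T cell quiescence, IL7R, TCF7 and LEF1 among them, gave none past 2-fold in CD4 T cells. The NF-κB genes gave 7 of 16 higher, 6 of them not set aside. Before any was set aside, 0.755% of all genes with 20 or more UMIs in the class were higher and 0.799% lower.

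In CD8 T cells, 29 of 6998 genes were higher (0.414%) and 10 lower (0.143%). IFNG, interferon-γ, went from 7.38 to 35.7 CPM (2.13) with UMIs in 6 of 553 and 15 of 717 barcodes, and GZMB, the cytotoxic protease granzyme B, from 110 to 343 CPM (1.63) in 40 and 49 barcodes. Ratios carried by more barcodes were those of NFKB2 (47.1 to 133 CPM, 1.48, in 104 and 321 barcodes), MAP3K8 (1.56, in 21 and 75), IL2RA (1.60, in 24 and 58), RGS1 (1.65, in 84 and 150) and TRAF4 (1.45, in 41 and 120). TBC1D4 (1.73) had 71 of its 124 UMIs at 2 h in 1 barcode, and lay at 0.67 without the top barcode of each library. The lowest ratios were those of TNFRSF9, in 5 and 6 barcodes (−2.79), and ECT2 (−1.24), UCKL1 (−1.23), SH2D3C (−1.18) and MORC2 (−1.15).

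Taken over all T cells, the lectin-like receptor gene KLRJ1 had no UMI without LPS and 126 UMIs in 8 barcodes at 2 h, at least 30.5-fold higher against a floor of 3 UMIs in the class. That bound leaves out the counting error of the 2 h level, and the 95% interval of the log2 ratio began at 4.61. IL17A (2.07) and IL17F (1.96) of the Th17 type had UMIs in 12 and 46 T cell barcodes at 2 h, NLRP3 (1.78) in 292 and ZC3H12A (1.74) in 678. NLRP3 passed the screen for free RNA through the no LPS library alone, at 7.25% of the level of the highest class. At 2 h it stood at 1.38%, or 18.7 CPM in T cells against 1359 CPM in the CSF3R and CXCR2 gated barcodes. The lowest ratio was that of ID3, from 44.4 to 17.7 CPM (−1.28), with CXCL12 (−1.13), VEGFC (−1.09), RUNX1T1 (−1.09) and FAM170B (−1.06).

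NK cells were few here, 75 and 116 barcodes, and 49 of 2041 genes were higher (2.4%) and 8 lower (0.392%). IFNG had no UMI in the 75 barcodes without LPS and 99 UMIs in 16 of 116 barcodes at 2 h, which is 177 CPM and at least 21.4-fold higher against a floor of 3 UMIs in the class. The 95% interval of this log2 ratio, which holds the counting error of both levels, began at 4.10. ISG15 went from 13.7 to 424 CPM (4.85), the kinase gene SGK1 from 11.0 to 166 CPM (3.80), the AP-1 family factor BATF from 123 to 658 CPM (2.40) and TNFRSF18 from 85.0 to 440 CPM (2.36). BATF UMIs were in 27 of 75 and in 92 of 116 barcodes. NFKBIZ (2.06), IQSEC1 (2.01) and NFKB2 (1.79) followed, and the lowest ratios were those of YWHAH (−1.67), EMC9 (−1.50), the TNF-family receptor CD27 (−1.41), CFAP298 (−1.32) and FKBP11 (−1.09).

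WC1 γδ T cells gave 51 of 3107 genes higher (1.64%) and 30 lower (0.966%), or 40 and 39 with TMM scaling. ISG15 (65.0 to 630 CPM, 3.26), TNFRSF18 (78.8 to 584 CPM, 2.87) and BATF (42.5 to 283 CPM, 2.71) were in 46, 78 and 53 of the 115 barcodes at 2 h. Other large ratios were those of single barcodes. IL17F (6.13) had 305 of 307 UMIs in 1 barcode, CCL3 (4.87) 561 of 590, and SPP1 (3.27) all 93, and JCHAIN (2.92) had 95 of 101. Without the top barcode of each library these lay at 0.94, 0.98, −1.17 and −0.85. NUPR1 (5.19) had 37 of 49 UMIs in 1 barcode. The lowest ratios were those of DAPL1 (−2.22), KDM5C (−1.91), TTC3 (−1.64), TBXA2R (−1.52) and CTSW (−1.50). CTSW had 31 of 50 UMIs without LPS and 12 of 13 at 2 h in 1 barcode, and DAPL1 had 46 UMIs in 6 barcodes and 7 in 4. KDM5C, TTC3 and TBXA2R were in 37, 34 and 38 barcodes without LPS and in 8, 9 and 11 at 2 h.

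Which genes were higher in several classes was counted over the 1980 genes with at least 50 UMIs in each of CD4 T, CD8 T, B, NK and monocyte classes. NFKB2 and TNFAIP3 were 2-fold higher in all 5, a further 8 genes in 4, 7 in 3, 9 in 2 and 72 in 1. No gene was 2-fold lower in more than 2 of the 5. Of the genes counted in each class after the screen, 0.319% were lower in CD4 T, 0.143% in CD8 T, 0.414% in B, 0.392% in NK and 15.2% in monocytes. The shares that were higher were 0.345%, 0.414%, 1.53%, 2.4% and 3.76% in the same order. The NF-κB subunit gene NFKB2 lay at 1.19 in CD4 T, 1.48 in CD8 T, 1.17 in B, 1.79 in NK and 1.53 in monocytes, and TNFAIP3, the A20 inhibitor of NF-κB, at 1.38, 1.12, 2.56, 1.03 and 2.18 in the same order. BATF, BCL2A1, BIRC3, IFIH1, NFKBIZ, RELB and TNFRSF18 were among the genes higher in 4 classes. The CSF3R and CXCR2 gated barcodes, 25 and 77 in number, had the highest NFKBIA and ISG15 levels, which set these genes aside in some classes. With those barcodes left out of the screen, an alternative added once the values were known, NFKBIA and ISG15 were also higher in all 5.

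**Figure D3:**
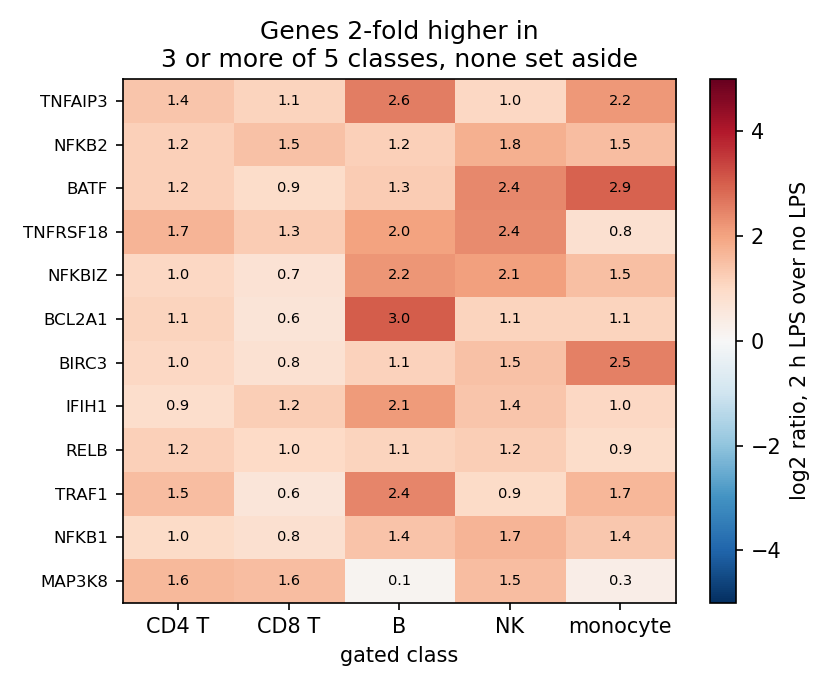
Log2 ratios of 2 h LPS over no LPS in 5 gated classes (columns) for the 12 genes that were 2-fold higher in 3 or more of them and set aside in none (rows), 1 library per treatment. NFKB2 and TNFAIP3 are past 1 in every column.

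Monocyte genes had low levels in the other classes, and free RNA, joined cells and low expression were not told apart. CCL2 stood at 186 CPM in CD4 T cells, 173 CPM in B cells and 187 CPM in NK cells without LPS and at 36.3, 96.2 and 33.9 CPM at 2 h, against 33163 and 11541 CPM in monocytes. Most chemokine ratios of lymphocytes therefore stood at levels under 5% of those in another class, and 11 of 14 counted chemokines in B cells were set aside. CD69 was also set aside outside the CSF3R and CXCR2 gated barcodes, where it was at 1555 and 8005 CPM. Its levels elsewhere were 10.4 and 72.4 CPM in B cells, 7.41 and 303 CPM in monocytes and 20.4 and 55.5 CPM in CD4 T cells.

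How many cells carried a response gene differed widely. At 2 h, ISG15 UMIs were in 41.5% of all barcodes, CD69 in 20.5%, CCL20 in 8.37% and IL22, a cytokine of T cells and innate lymphoid cells, in 0.326%. After thinning each barcode to 1000 UMIs the shares for ISG15 were 7.74% without LPS and 24.1% at 2 h, and for CD69 2.27% and 8.65%. Of the 939 IL22 UMIs at 2 h, 55.6% were in 2 barcodes, while 50% of the ISG15 UMIs were spread over 280 barcodes. IL17A and CSF2, which were at −0.82 and −0.26 over all cells, had 426 of 443 and 834 of 1029 UMIs without LPS in 1 barcode, and without the top barcode of each library they lay at 1.56 and 1.42. IFNG over all cells (1.75) lay at 2.26 on the same basis, with UMIs in 26 and 102 barcodes.

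**Figure D4:**
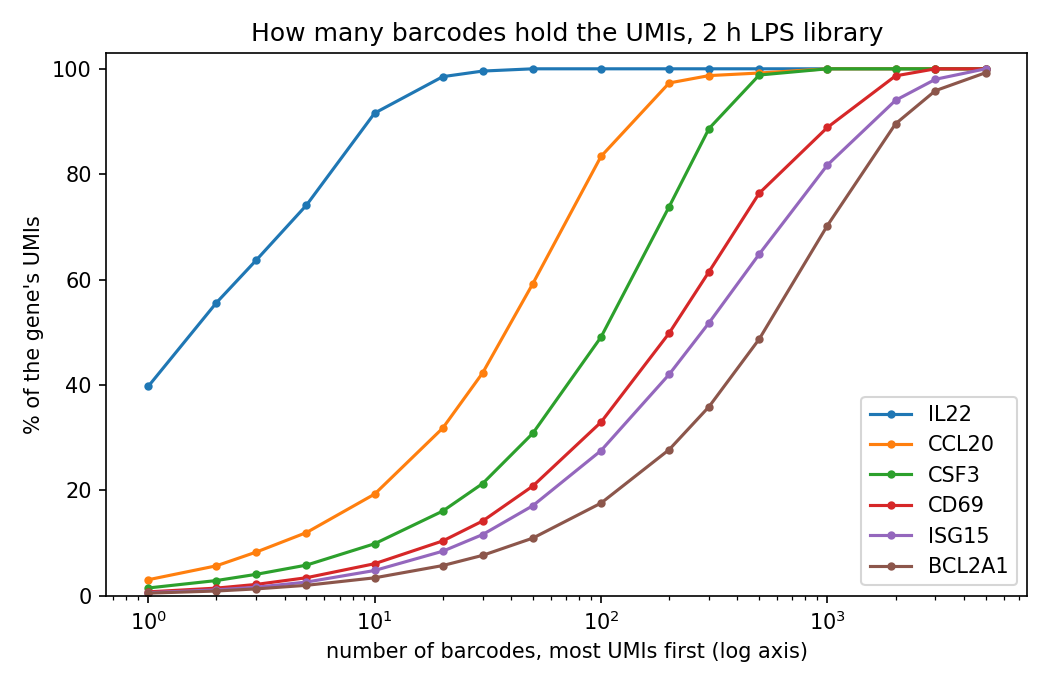
Cumulative percentage of a gene's UMIs in the 2 h LPS library (y axis) over barcodes ordered from the most UMIs down (x axis, log). IL22 reaches 55.6% in 2 barcodes and CCL20 83.4% in 100, whereas ISG15 has 27.5% and BCL2A1 17.6% in 100.

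Over all cells, where 0.822% of genes with 20 or more UMIs were higher and 2.74% lower, few genes of any short list would pass. None of 10 housekeeping, 15 heat shock, 12 T cell quiescence, 8 MHC class II, 86 oxidative phosphorylation or 47 proteasome genes was past 2-fold, with medians between −0.10 and 0.12. The 6 globin and red cell genes summed to 39 CPM in each library. Of response lists over all cells, NF-κB gave 7 of 16 higher, activation surface genes 7 of 17 and interferon-stimulated genes 6 of 38, with none lower. Cytokines gave 7 higher and 1 lower of 24, effector genes 6 and 2 of 18, lymphocyte cytokines 3 and 2 of 12, chemokines 2 and 2 of 16, feedback inhibitors 2 and 1 of 17, immediate early genes 1 and 2 of 19 and receptor genes 0 and 1 of 15. The lower receptor gene was CD14, a gate gene that is not read as a result.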

How the data were processed

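The study prepared single-cell libraries on the Chromium platform, and the authors deposited a table of unnormalised UMI counts for each library (genes against barcodes). The labels name Cell Ranger and the cattle genome ARS-UCD1.2/bosTau9. Counts of 69 repeated symbols were added up. Barcodes with fewer than 200 genes were left out, leaving 58035339 UMIs without LPS and 63761174 at 2 h. The study's own limits, at most 3000 genes and under 20% mitochondrial UMIs, were tried as an alternative.

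UMIs were summed per library and per marker-gated class in Python 3.11.15, and 1 CPM was added before taking logs. Genes needed 200 UMIs over both libraries, 50 within a class or 20 in a list. Intervals are exact (Poisson for a level, conditional binomial for a ratio, Clopper-Pearson for a share). Named genes are members of the lists, the 15 highest and 15 lowest ratios over all cells, and the 8 highest and 5 lowest within a class. The ratio step was tested on simulated data. TMM factors (edgeR 4.0.16) and size factors (DESeq2 1.42.0) served as alternative scalings only, with no model fitted.

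The gene lists, gates and named-gene rule were chosen with earlier results of these data known. Doublets were not called, cell types were not taken from an annotation, and the scATAC-seq files were not used here.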

Additional observations from a re-analysis of the deposited data

How the results depend on the processing

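No paired analysis was possible because each treatment had 1 library and the labels give no replicate numbers. For the same reason no library could be left out. Counts are of genes past 2-fold, and share ratios are 2 h LPS over no LPS. The causes of the differences below were not tested. Over all cells, a pseudocount of 5 CPM gave 64 higher and 178 lower genes, a minimum of 1000 UMIs gave 207 lower, and the no LPS class composition gave 160 lower. In the lists over all cells, weighting barcodes equally gave 4 higher cytokines and 4 higher chemokines, a pseudocount of 5 CPM gave 1 higher feedback inhibitor, and the no LPS composition gave 7 higher chemokines, 2 higher immediate early genes, 10 lower monocyte genes and 0 lower receptor genes.

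The T cell share ratio was 1.04 with gates raised by 1 UMI, 1.17 with no UMI of other panels allowed, 1.06 with no exclusion and 0.955 with gates on barcodes thinned to 1000 UMIs. Thinning gave share ratios of 0.845 for CD4 T, 0.177 for monocytes and 0.228 for WC1 γδ T, the last from 7 and 2 barcodes. The monocyte ratio was 0.389 with no exclusion and 0.379 with a panel of AIF1, SPI1 and FGL2, of which FGL2 (−2.25) and AIF1 (−0.43) were themselves lower within monocytes.

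Without exclusion by other panels, lower genes numbered 301 in T, 213 in CD4 T, 152 in CD8 T, 375 in WC1 γδ T, 249 in B, 57 in NK and 516 in monocytes, and higher genes 64 in CD4 T, 50 in CD8 T, 117 in WC1 γδ T and 95 in NK. With thinned gates lower genes numbered 17 in T, 6 in CD4 T, 4 in WC1 γδ T, 72 in B and 24 in NK, and higher genes 0 in WC1 γδ T and 20 in NK. A minimum of 20 UMIs gave 50 higher and 48 lower in CD4 T, 61 and 42 in CD8 T, 150 and 155 in WC1 γδ T, and 178 and 113 in NK. The study's cell limits gave 13 lower in CD4 T, 18 higher in CD8 T and 105 lower in B. Allowing no UMI of other panels gave 13 lower in CD4 T, raised gates gave 27 higher in NK, and the AIF1, SPI1 and FGL2 panel gave 68 lower in B. Requiring 5% of the highest class in both libraries gave 16 higher in CD4 T and 4 lower in T. TMM scaling gave 22 lower in B and 472 higher and 372 lower in monocytes.

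Directions turned for IL17A in T cells with no exclusion (−0.96), RGS1 in CD8 T (−0.80) and CD27 in NK (1.06) with thinned gates, SPP1 in WC1 γδ T without the top barcodes (−1.17), JCHAIN in WC1 γδ T with the cell limits (−0.88), with no exclusion (−0.59) and without the top barcodes (−0.85), and XCL1 in monocytes without the top barcodes (0.28). Leaving out top barcodes, ratios relative to the class median, the screen without the CSF3R and CXCR2 gated barcodes and the screens in both libraries or on the mean of both were added after seeing the data. Of the other values, 238 counts and share ratios stayed within their limits, and of single genes 711 did so and 359 moved beyond them.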
